A study of Mus musculus x Mus spretus with 8 samples.

Results

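The 39 protein-coding genes of the 4 mouse Hox clusters were followed in RNA-seq counts of Patski fibroblasts, each as a total count and as reads assigned to either parental genome. Members were all genes whose symbol is Hoxa, Hoxb, Hoxc or Hoxd followed only by digits, matched by Ensembl identifier. This gave 39 of the 49670 genes in the count table: 11 in HoxA, 10 in HoxB, 9 in HoxC and 9 in HoxD. Patski is a female mouse line that carries a C57BL/6 and a SPRET/EiJ genome, and was grown in DMEM with 10% serum. Its 4 groups were Stc1 -/-, Pygo1 -/-, Rlim -/- and wild type (WT), with 2 libraries each. The 2 libraries of a knockout are described as independent mutants of the same line, and nothing is said of the origin of the WT pair. The p-values therefore measure only the spread between these libraries, and each group represents 1 cell line. In bulk RNA, fewer cells of a type and less RNA per cell cannot be told apart.

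Hox genes encode transcription factors that bind DNA through a homeodomain. They lie in 4 clusters, and members with the same number in different clusters are paralogues: low numbers lie at the 3′ end of a cluster and act towards the head, high numbers lie at the 5′ end and act towards the tail and the limb ends. Polycomb complexes hold silent Hox genes in a repressed state and Trithorax proteins keep active ones on, so cultured fibroblasts are known to retain the Hox pattern of the body region they came from. The Patski line was derived from embryonic kidney, an organ whose induction in the mouse needs the paralogous genes Hoxa11, Hoxc11 and Hoxd11.

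The homeobox is the stretch of coding sequence shared by all members, and it limits how well a read can be placed in 1 of them. The 60 bases at its 3′ end are shown for Hoxb9, the member with the highest level, and for its paralogue Hoxc9, the member with which it shares the longest run of identical bases. They were read from the GENCODE M21 transcripts on GRCm38, 5′ to 3′, both within coding exons. They lie at chr11:96274779-96274838 (+) in Hoxb9 and chr15:102984050-102984109 (+) in Hoxc9. Capitals mark bases that differ from Hoxb9.
Hoxb9: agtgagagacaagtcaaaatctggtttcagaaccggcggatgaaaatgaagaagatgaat
Hoxc9: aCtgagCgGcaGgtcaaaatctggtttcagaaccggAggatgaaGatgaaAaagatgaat
Over the whole homeobox of 180 bases, identity to Hoxb9 was 81.7% in Hoxa9, 83.9% in Hoxc9, 84.4% in Hoxd9 and 61.7% in Hoxb3, and it ranged from 53.3% to 84.4% over the other 38 members. Between members that do not overlap in the genome, the longest identical run of transcript sequence was 52 bases, between Hoxa6 and Hoxb4, and the next was 50 bases, between Hoxb9 and Hoxc9. With 1 transcript compared per member, runs of 50 bases or more were found in 2 of the 741 pairs of members. Over all annotated exons, Hoxc5 and Hoxc10 share 166 bases, and Hoxd3 and Hoxd4 share exon bases too. The treatment of reads that fit several places was not given in the sources used here. Of the 39 members, 16 shared exon bases with another annotated gene, and Hoxb3 (52.9% of its exon bases), Hoxd3 (62.8%) and Hoxd4 (52.3%) shared more than 50% of them. Whether counting used the strand is also not given in the sources used here. Reads of these 16 genes and of their partners may thus be mixed.

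The libraries held 73128996 to 81500061 counts, of which 50.6% to 52.6% were assigned to a parental genome. Levels are in CPM, counts scaled to a fixed library total after TMM normalization, which takes most genes as unchanged. In these units 3 counts correspond to 0.0376 to 0.0416 CPM. RNA of the targeted genes was not called lower under its own label. Stc1 stood at 3.67 and 68.4 CPM in Stc1-labelled against 3.84 and 3.15 CPM in WT libraries (edgeR adjusted p = 0.236). Pygo1 stood at 2.50 and 0.674 CPM in Pygo1-labelled against 2.49 and 2.44 CPM in WT libraries (0.715, edgeR), and Rlim at 71.9 and 64.2 CPM in Rlim-labelled against 57.2 and 51.4 CPM in WT libraries (0.699, edgeR). The groups are therefore named by their labels, and each direction below is a direction between labelled libraries. The Stc1-labelled pair differed most: 21.1% of all genes tested differed by 2-fold or more between its libraries, against 11.8% in the Pygo1-labelled, 4.14% in the Rlim-labelled and 5.24% in the WT pair. Of 13 fibroblast markers, Vim (833 to 1279 CPM), Fn1 (1545 to 4562 CPM) and Col5a1 (199 to 377 CPM) were abundant in every library. Pdgfra (2.06 to 13.2 CPM), Col1a1 (2.03 to 8.19 CPM), S100a4 (1.118 to 6.44 CPM) and Dcn (0.175 to 2.23 CPM) were read at lower levels, and Col1a2, Col3a1, Thy1, Lum, Fap and Pdgfrb reached at most 0.692 CPM in any library.

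Summed over the 39 members, Hox RNA came to 933 and 850.4 CPM in Stc1-labelled, 684 and 784 CPM in Pygo1-labelled, 822 and 827 CPM in Rlim-labelled and 884 and 901 CPM in WT libraries. Both Pygo1-labelled libraries lay below all other libraries, and the Stc1-labelled pair spanned the WT pair. HoxB carried most of it, with 70.1% to 73.4% of the Hox counts in a library, and HoxA carried 19.7% to 23.5%. HoxD held 3.81% to 4.70% and HoxC 1.60% to 2.71%. HoxB summed to 639 ± 22.2 CPM in Stc1-labelled libraries, 531 ± 62.8 CPM in Pygo1-labelled libraries, 588 ± 4.05 CPM in Rlim-labelled libraries, 639 ± 7.36 CPM in WT libraries (SD, n = 2 each). HoxA summed to 193 ± 36.3 CPM in Stc1-labelled libraries, 156 ± 6.72 CPM in Pygo1-labelled libraries, 182 ± 0.0699 CPM in Rlim-labelled libraries, 199 ± 2.999 CPM in WT libraries (SD, n = 2 each). In HoxD the sums were 41.0 ± 3.62 CPM in Stc1-labelled libraries, 33.04 ± 1.19 CPM in Pygo1-labelled libraries, 31.7 ± 0.189 CPM in Rlim-labelled libraries, 40.05 ± 2.41 CPM in WT libraries (SD, n = 2 each). HoxC was the only cluster whose Rlim-labelled sum was the highest of the 4 groups, at 18.9 ± 3.64 CPM in Stc1-labelled libraries, 14.3 ± 0.321 CPM in Pygo1-labelled libraries, 22.0 ± 0.346 CPM in Rlim-labelled libraries, 14.6 ± 0.236 CPM in WT libraries (SD, n = 2 each).

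**Figure D1:**
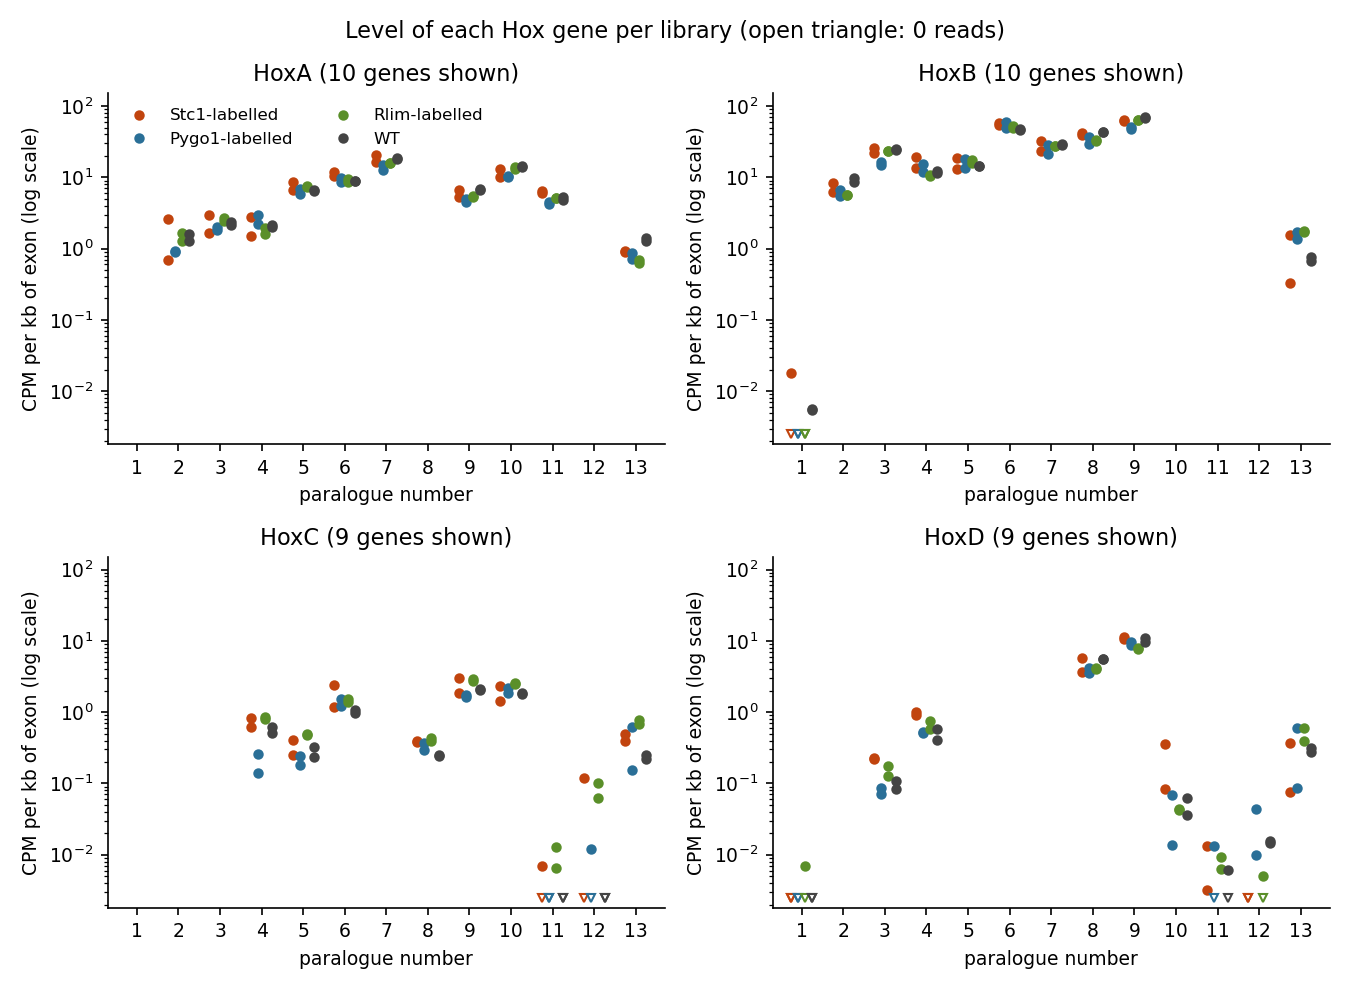
CPM per kilobase of exon (log axis) of 38 of the 39 Hox members against the paralogue number, 1 panel per cluster, with 1 point per library coloured by group and open triangles for libraries with 0 reads. Hoxb9 is highest with a mean of 61.4 CPM per kilobase, followed by Hoxb6, Hoxb8, Hoxb7 and Hoxb3, while Hoxb2 lies lower at 7.03. Members numbered 11 and 12 of HoxC and HoxD lie at or near 0 while Hoxa11 stands at 5.20.

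Per kilobase of exon, which allows levels of different genes to be set side by side, Hoxb9 was highest with a mean of 61.4 CPM per kilobase over the 8 libraries, followed by Hoxb6 at 52.0, Hoxb8 at 37.5, Hoxb7 at 27.2 and Hoxb3 at 21.9. Hoxb9 stood above Hoxb6 in the Stc1-labelled (62.9 against 55.9), Rlim-labelled (63.9 against 50.4) and WT groups (69.5 against 46.8), and below it in the Pygo1-labelled group (49.4 against 54.9 CPM per kilobase). Hoxa7 (16.6), Hoxb5 (15.8), Hoxb4 (13.2) and Hoxa10 (12.4 CPM per kilobase) came next, and they changed places between groups: Hoxb5 was above Hoxa7 in the Pygo1-labelled and Rlim-labelled groups and below it in the Stc1-labelled and WT groups. Hoxa6 at 9.59 and Hoxd9 at 9.53 CPM per kilobase also changed order, with Hoxd9 above Hoxa6 in the Pygo1-labelled and WT groups and below it in the Stc1-labelled and Rlim-labelled groups. The 4 members numbered 13 were low, at 1.24 CPM per kilobase for Hoxb13, 0.925 for Hoxa13, 0.450 for Hoxc13 and 0.339 for Hoxd13. Among the 3 paralogues numbered 11, Hoxa11 was at 5.20 CPM per kilobase, Hoxc11 at 0.00326 and Hoxd11 at 0.00637.

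In HoxB, which lies at chr11:96194316-96368256 (GRCm38), 8 of 10 members averaged 5 CPM or more. Hoxb9, whose mouse paralogues together direct mammary gland development and thoracic patterning, had 159.7 and 164 CPM in Stc1-labelled, 125 and 129.9 CPM in Pygo1-labelled, 166 and 163 CPM in Rlim-labelled and 175 and 183 CPM in WT libraries. Both Pygo1-labelled libraries lay below all others. Hoxb6 had 107 and 113 CPM in Stc1-labelled, 97.05 and 118 CPM in Pygo1-labelled, 96.2 and 102 CPM in Rlim-labelled and 90.9 and 93.1 CPM in WT libraries. Hoxb8, a gene used to hold myeloid progenitors in an immature state, had 109.9 and 103.7 CPM in Stc1-labelled, 77.6 and 97.1 CPM in Pygo1-labelled, 87.5 and 85.9 CPM in Rlim-labelled and 114 and 115 CPM in WT libraries. All 6 knockout-labelled libraries were below both WT libraries for Hoxb8 and above both for Hoxb6. Hoxb3, which acts in the hindbrain and in pharyngeal organs, had 111 and 94.0 CPM in Stc1-labelled, 63.6 and 69.2 CPM in Pygo1-labelled, 98.0 and 99.2 CPM in Rlim-labelled and 106 and 102 CPM in WT libraries. The 2 Pygo1-labelled values were the lowest of the 8 and did not overlap any other group.

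Hoxb7, whose promoter is widely used to mark the ureteric bud of the mouse kidney, had 50.6 and 36.5 CPM in Stc1-labelled, 32.4 and 43.6 CPM in Pygo1-labelled, 42.0 and 42.7 CPM in Rlim-labelled and 45.1 and 43.5 CPM in WT libraries. Hoxb5 had 52.4 and 36.7 CPM in Stc1-labelled, 37.9 and 51.2 CPM in Pygo1-labelled, 44.9 and 48.1 CPM in Rlim-labelled and 39.97 and 40.8 CPM in WT libraries. In both genes the Stc1-labelled and the Pygo1-labelled pair overlapped WT. Hoxb4, known for expanding blood stem cells when overexpressed, had 34.3 and 49.7 CPM in Stc1-labelled, 30.9 and 39.5 CPM in Pygo1-labelled, 26.98 and 27.3 CPM in Rlim-labelled and 31.5 and 29.96 CPM in WT libraries. Both Stc1-labelled libraries were above both WT libraries and both Rlim-labelled libraries below them. Hoxb2, a regulator of hindbrain segments and facial motor neurons, had 28.9 and 21.8 CPM in Stc1-labelled, 18.8 and 23.4 CPM in Pygo1-labelled, 19.8 and 19.97 CPM in Rlim-labelled and 29.8 and 33.9 CPM in WT libraries, and all 6 knockout-labelled libraries lay below both WT libraries. The other members were low: Hoxb13, known in the prostate and tail bud, had 0.720 to 3.96 CPM, and Hoxb1, known in the hindbrain, had 0 to 3 counts and was not tested.

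In HoxA, at chr6:52155590-52260880 on the minus strand, 8 of 11 members averaged 5 CPM or more, and the central members led. Hoxa7 had 58.7 and 47.4 CPM in Stc1-labelled, 36.8 and 42.2 CPM in Pygo1-labelled, 45.6 and 45.9 CPM in Rlim-labelled and 51.4 and 53.4 CPM in WT libraries. Hoxa10, needed for uterine and lumbar identity, had 43.5 and 33.3 CPM in Stc1-labelled, 34.3 and 32.9 CPM in Pygo1-labelled, 45.3 and 42.9 CPM in Rlim-labelled and 45.7 and 47.2 CPM in WT libraries. Both Pygo1-labelled libraries were below both WT libraries in each of these genes. Hoxa9, which acts with its cofactor Meis1 in leukaemia, had 37.2 and 29.9 CPM in Stc1-labelled, 25.2 and 27.7 CPM in Pygo1-labelled, 30.1 and 29.8 CPM in Rlim-labelled and 38.9 and 37.3 CPM in WT libraries. For this gene all 6 knockout-labelled libraries lay below both WT libraries. Hoxa11, needed with its paralogues for the kidney and the forearm, had 14.8 and 13.95 CPM in Stc1-labelled, 9.54 and 10.4 CPM in Pygo1-labelled, 11.6 and 11.9 CPM in Rlim-labelled and 10.9 and 12.0 CPM in WT libraries. Its Stc1-labelled pair was the highest and its Pygo1-labelled pair the lowest.

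Among the 3′ members, Hoxa3, which acts in the thymus and parathyroid, had 17.7 and 10.1 CPM in Stc1-labelled, 11.1 and 12.2 CPM in Pygo1-labelled, 14.8 and 16.4 CPM in Rlim-labelled and 13.1 and 14.4 CPM in WT libraries. Hoxa5, known in lung and sternum development, had 16.0 and 12.6 CPM in Stc1-labelled, 10.8 and 12.9 CPM in Pygo1-labelled, 14.1 and 13.9 CPM in Rlim-labelled and 12.5 and 12.1 CPM in WT libraries. The Pygo1-labelled pair lay below WT for Hoxa3 and overlapped WT for Hoxa5. Hoxa6 had 10.4 and 9.14 CPM in Stc1-labelled, 8.55 and 7.40 CPM in Pygo1-labelled, 8.40 and 7.58 CPM in Rlim-labelled and 7.81 and 7.83 CPM in WT libraries. The Stc1-labelled pair of Hoxa6 held the highest values. Hoxa2, which sets the identity of the second pharyngeal arch, had 4.67 and 1.24 CPM in Stc1-labelled, 1.59 and 1.65 CPM in Pygo1-labelled, 2.31 and 2.97 CPM in Rlim-labelled and 2.31 and 2.83 CPM in WT libraries. Hoxa4 had 4.47 and 2.41 CPM in Stc1-labelled, 3.52 and 4.65 CPM in Pygo1-labelled, 2.60 and 3.06 CPM in Rlim-labelled and 3.41 and 3.18 CPM in WT libraries. The first Stc1-labelled library was high and the second low for both. Hoxa13, which acts in digits, hindgut and genital ducts, had 2.26 and 2.21 CPM in Stc1-labelled, 2.14 and 1.78 CPM in Pygo1-labelled, 1.53 and 1.71 CPM in Rlim-labelled and 3.48 and 3.18 CPM in WT libraries, with all 6 knockout-labelled libraries below both WT libraries.

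HoxC, at chr15:102921103-103036852, was low throughout, and only Hoxc9 averaged 5 CPM. Hoxc9, which in the mouse sets the thoracic motor column, had 4.47 and 7.27 CPM in Stc1-labelled, 4.01 and 4.25 CPM in Pygo1-labelled, 7.13 and 6.73 CPM in Rlim-labelled and 5.07 and 4.92 CPM in WT libraries. Its Rlim-labelled pair lay above WT and its Pygo1-labelled pair below. Hoxc6 (2.34 to 5.76 CPM), Hoxc10 (2.74 to 4.96 CPM; lumbar motor neurons), Hoxc5 (0.564 to 1.51 CPM), Hoxc8 (0.677 to 1.25 CPM; brachial motor neurons and lower ribs) and Hoxc13 (0.385 to 1.91 CPM; hair) were lower. Hoxc4 had 1.58 and 2.13 CPM in Stc1-labelled, 0.365 and 0.661 CPM in Pygo1-labelled, 2.20 and 2.08 CPM in Rlim-labelled and 1.61 and 1.33 CPM in WT libraries, with both Pygo1-labelled libraries below all others. Hoxc11 had 0 to 2 counts and Hoxc12 had 0 to 9 counts, and neither was tested.

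HoxD, at chr2:74668310-74765142, had 2 members above 5 CPM, which are adjacent. Hoxd9 had 22.7 and 24.0 CPM in Stc1-labelled, 18.6 and 20.5 CPM in Pygo1-labelled, 17.0 and 16.2 CPM in Rlim-labelled and 20.6 and 23.2 CPM in WT libraries. Hoxd8 had 15.8 and 9.96 CPM in Stc1-labelled, 11.4 and 9.80 CPM in Pygo1-labelled, 10.9 and 11.2 CPM in Rlim-labelled and 15.3 and 15.5 CPM in WT libraries. The Rlim-labelled pair lay below both WT libraries in each gene, and the Pygo1-labelled pair did so too. On either side of them the level dropped: Hoxd4 had 1.21 to 2.95 CPM, Hoxd3 0.303 to 0.942 CPM, Hoxd10 0.0252 to 0.639 CPM and the digit gene Hoxd13 0.186 to 1.5001 CPM. Hoxd1 had 0 to 1 counts, Hoxd11 0 to 4 counts and Hoxd12 0 to 8 counts. These 3 genes, with Hoxb1, Hoxc11 and Hoxc12, make up the 6 members under the filter on low counts, and the other 33 were tested among 17839 genes.

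**Figure D2:**
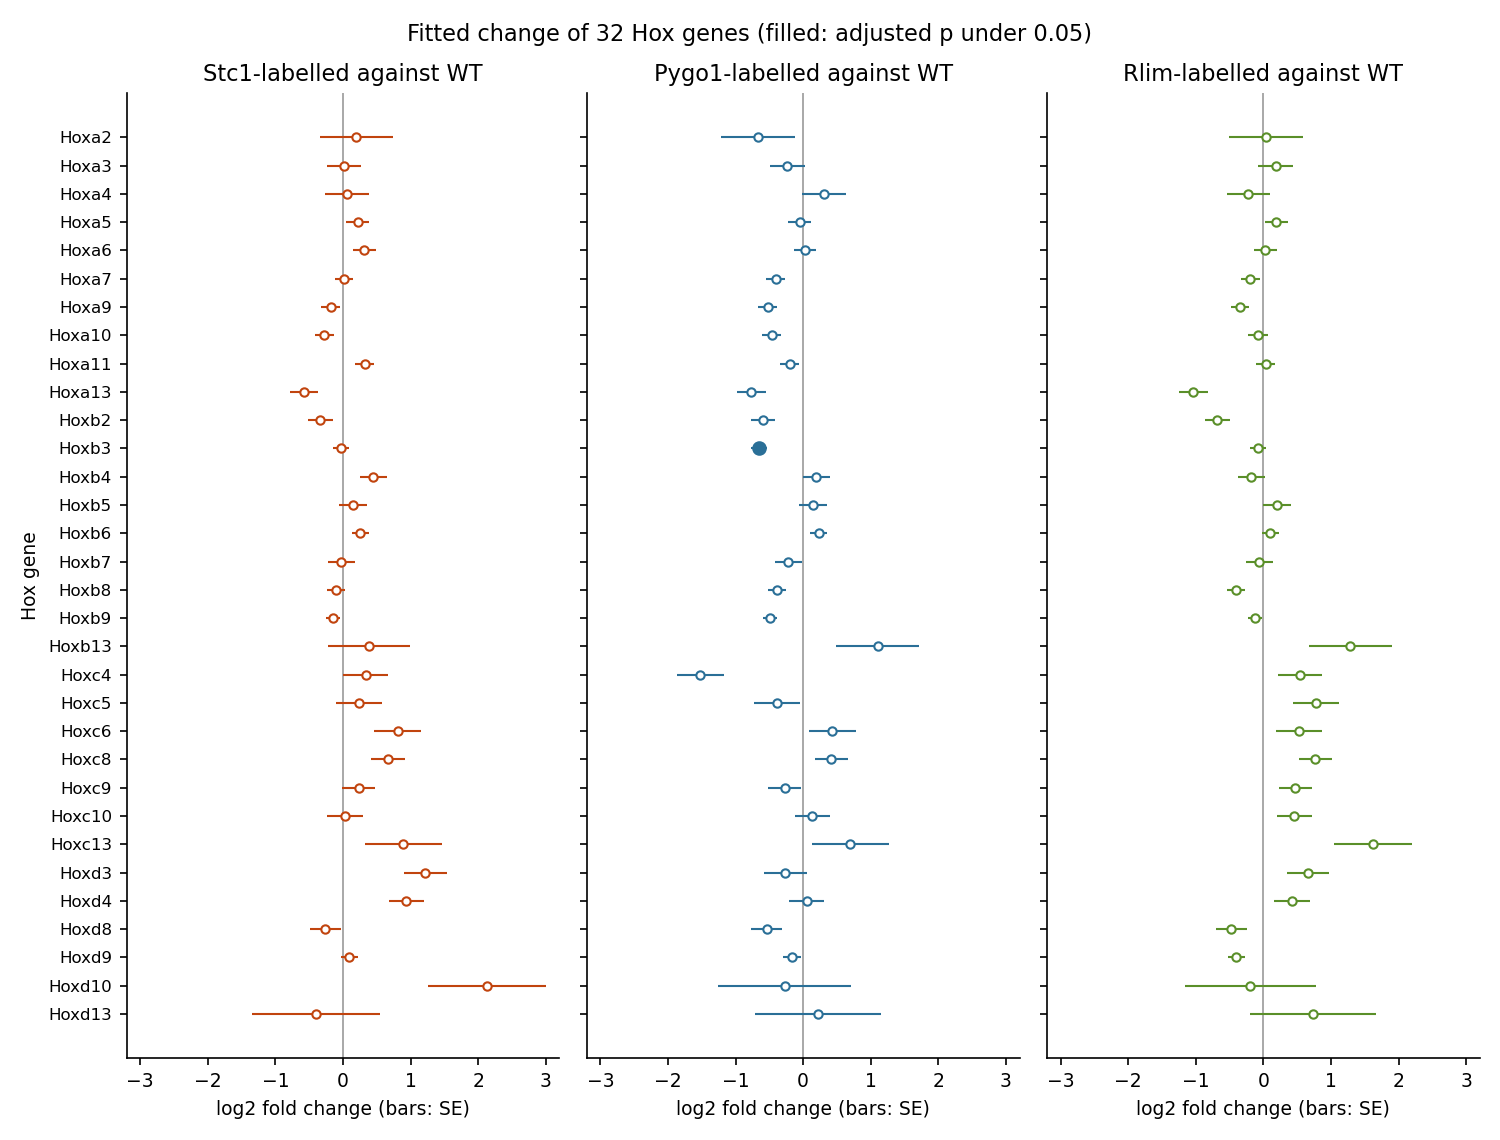
Log2 fold changes (points) with SE (bars) from edgeR of 32 of the 33 tested Hox members in Stc1-labelled, Pygo1-labelled and Rlim-labelled libraries against WT, grouped by cluster. Hoxb3 in Pygo1-labelled libraries, at -0.65 ± 0.12, is the 1 member called (filled point). All 7 HoxC members lie above 0 in both the Rlim-labelled and the Stc1-labelled comparison.

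In the comparison of Pygo1-labelled with WT libraries, Hoxb3 was the 1 member of 33 that passed, and it fell. Its log2 fold change was -0.65 ± 0.12 (SE; edgeR quasi-likelihood test, Benjamini-Hochberg adjusted p = 0.0488), a 1.57-fold lower level in 2 of 2 libraries. Over all genes tested, 2.35% were called in that comparison, in either direction, and 0.807% were called lower. The call lies near the threshold of 0.05. It was lost with DESeq2's size factors in edgeR (adjusted p = 0.0506) and with the replicate number as a block (edgeR adjusted p = 0.0913). It was also lost without any 1 of the Pygo1-labelled, Rlim-labelled or WT libraries (adjusted p from 0.115 to 0.373), while the log2 fold change stayed between -0.72 and -0.60. Exons of Hoxb3 overlap those of the antisense gene Hoxb3os, which had 153 and 238 counts in Stc1-labelled, 313 and 485 counts in Pygo1-labelled, 195 and 217 counts in Rlim-labelled and 186 and 216 counts in WT libraries, a log2 fold change of 1.05 ± 0.32 in Pygo1-labelled libraries (edgeR adjusted p = 0.134). The antisense counts were thus higher where those of Hoxb3 were lower, and the part of reads shared by the pair was not tested.

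No member passed in Stc1-labelled or Rlim-labelled libraries against WT, where 0.577% and 1.4% of all genes were called in that order. The smallest adjusted p of a member was 0.156 in Stc1-labelled libraries (Hoxd3) and 0.0704 in Rlim-labelled libraries (Hoxa13), both from edgeR. At an unadjusted p under 0.05, the edgeR test gave 5 members in Stc1-labelled, 10 in Pygo1-labelled and 7 in Rlim-labelled libraries, where 16%, 20.6% and 17.9% of all genes, in that order, had such a p. DESeq2 called 0, 5 and 2 members, and 5.36%, 9.47% and 7.89% of all genes, in the same order. Between knockout labels, edgeR called no member for Stc1-labelled against Pygo1-labelled (1.74% of all genes called), Stc1-labelled against Rlim-labelled (0.381%) or Pygo1-labelled against Rlim-labelled libraries (1.02%). In the same order, DESeq2 called 5, 1 and 3 members and 7.34%, 4.9% and 6.24% of all genes. An unadjusted edgeR p under 0.05 was found for 9, 3 and 7 members and for 17.4%, 14.9% and 16.2% of all genes.

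These counts rest on the Stc1-labelled pair, which enters the common estimate of spread. Without either Stc1-labelled library, 11 members passed for Pygo1-labelled against WT libraries (19.7% of all genes without the first Stc1-labelled library and 19.8% without the second): Hoxa7, Hoxa9, Hoxa10, Hoxa13, Hoxb2, Hoxb3, Hoxb8, Hoxb9, Hoxc4 and Hoxd8, all lower, and Hoxb13, higher. For Rlim-labelled against WT libraries 6 members passed in the same way (16.3% of all genes in both cases): Hoxa9, Hoxa13, Hoxb2, Hoxd8 and Hoxd9, lower, and Hoxb13, higher. For Stc1-labelled against WT libraries, such a fit leaves 1 Stc1-labelled library, and the count of members depended on which was kept. The calls over all genes moved as well in these fits, so the counts say little of Hox members. Without any 1 of the other 6 libraries, no member passed in these 3 comparisons.

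The Hoxb9 RNA had log2 fold changes against WT of -0.14 ± 0.10 in Stc1-labelled (adjusted p = 0.530), -0.49 ± 0.10 in Pygo1-labelled (0.0611) and -0.12 ± 0.10 in Rlim-labelled (0.578) libraries, by the edgeR test used throughout and with SE. Hoxb8 stood at -0.10 ± 0.13 in Stc1-labelled (adjusted p = 0.743), -0.39 ± 0.13 in Pygo1-labelled (0.162) and -0.40 ± 0.13 in Rlim-labelled (0.177) libraries (edgeR). Hoxb6 lay above WT, at 0.25 ± 0.13 in Stc1-labelled (adjusted p = 0.381), 0.23 ± 0.13 in Pygo1-labelled (0.357) and 0.10 ± 0.13 in Rlim-labelled (0.721) libraries (edgeR). For Hoxb3 the remaining 2 values were -0.02 ± 0.12 (edgeR adjusted p = 0.947) in Stc1-labelled and -0.08 ± 0.12 (0.782) in Rlim-labelled libraries. The lower level of Hoxb3 was thus called under 1 label. Pygo1-labelled against Rlim-labelled libraries gave -0.57 ± 0.12 (edgeR adjusted p = 0.0846) and Stc1-labelled against Pygo1-labelled libraries 0.63 ± 0.12 (0.0577), neither of which passed. Hoxb2 gave -0.33 ± 0.18 in Stc1-labelled (adjusted p = 0.419), -0.59 ± 0.18 in Pygo1-labelled (0.137) and -0.68 ± 0.18 in Rlim-labelled (0.123) libraries (edgeR). Hoxb4 gave 0.45 ± 0.20 in Stc1-labelled (adjusted p = 0.331), 0.20 ± 0.20 in Pygo1-labelled (0.622) and -0.18 ± 0.20 in Rlim-labelled (0.694) libraries. For Hoxb5 the values were 0.14 ± 0.21 in Stc1-labelled (adjusted p = 0.779), 0.14 ± 0.21 in Pygo1-labelled (0.740) and 0.20 ± 0.21 in Rlim-labelled (0.662) libraries (edgeR). For Hoxb7 they were -0.02 ± 0.20 in Stc1-labelled (adjusted p = 0.968), -0.22 ± 0.20 in Pygo1-labelled (0.572) and -0.06 ± 0.20 in Rlim-labelled (0.906) libraries. The median of the 9 tested HoxB members was -0.02 in Stc1-labelled, -0.22 in Pygo1-labelled and -0.08 in Rlim-labelled libraries, beside medians of all genes of 0.014, -0.001 and 0.006 in that order.

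Of HoxA, Hoxa13 had the smallest adjusted p over the 3 comparisons with WT, in Rlim-labelled libraries, with log2 fold changes of -0.58 ± 0.21 in Stc1-labelled (adjusted p = 0.255), -0.77 ± 0.21 in Pygo1-labelled (0.111) and -1.04 ± 0.21 in Rlim-labelled (0.0704) libraries (edgeR). The Rlim-labelled value passed with DESeq2 (adjusted p = 0.00233), with the 2 groups fitted alone (7.10e-10, where 48.9% of all genes passed) and without either Stc1-labelled library (0.0142 and 0.0141), and it shrank to -0.68 when each chromosome was scaled to WT. Hoxa9 gave -0.18 ± 0.14 in Stc1-labelled (adjusted p = 0.561), -0.53 ± 0.14 in Pygo1-labelled (0.102) and -0.35 ± 0.14 in Rlim-labelled (0.255) libraries (edgeR), and the Rlim-labelled value turned to 0.01 when each chromosome was scaled to WT. Hoxa10 gave -0.27 ± 0.15 in Stc1-labelled (adjusted p = 0.409), -0.47 ± 0.15 in Pygo1-labelled (0.141) and -0.08 ± 0.15 in Rlim-labelled (0.838) libraries (edgeR). Hoxa7 stood at 0.02 ± 0.14 in Stc1-labelled (adjusted p = 0.969), -0.41 ± 0.14 in Pygo1-labelled (0.167) and -0.20 ± 0.14 in Rlim-labelled (0.515) libraries (edgeR). Hoxa11 had 0.32 ± 0.14 in Stc1-labelled (adjusted p = 0.323), -0.20 ± 0.14 in Pygo1-labelled (0.470) and 0.03 ± 0.14 in Rlim-labelled (0.932) libraries (edgeR). The genes tested on chromosome 6, after a further cut on mean level, were lower by their median as well. Their median log2 fold change was -0.149 in Stc1-labelled, -0.316 in Pygo1-labelled and -0.350 in Rlim-labelled libraries, beside HoxA medians of 0.02, -0.24 and -0.08. When each chromosome was scaled to WT, the Pygo1-labelled values moved to -0.09 for Hoxa7, -0.14 for Hoxa10, -0.20 for Hoxa9 and -0.44 for Hoxa13, each nearer to 0 by about the chromosome 6 median, and none passed (edgeR adjusted p from 0.292 to 0.665). The Stc1-labelled value of Hoxa13 moved to -0.38 (edgeR adjusted p = 0.440). The 3′ members were nearer to 0 or less precise, with Hoxa2 at 0.20 ± 0.54 in Stc1-labelled (adjusted p = 0.892), -0.67 ± 0.55 in Pygo1-labelled (0.536) and 0.04 ± 0.54 in Rlim-labelled (0.981) libraries (edgeR). Hoxa3 stood at 0.02 ± 0.26 in Stc1-labelled (adjusted p = 0.984), -0.24 ± 0.26 in Pygo1-labelled (0.647) and 0.18 ± 0.26 in Rlim-labelled (0.766) libraries (edgeR). Hoxa4 gave 0.06 ± 0.32 in Stc1-labelled (adjusted p = 0.947), 0.31 ± 0.32 in Pygo1-labelled (0.631) and -0.22 ± 0.32 in Rlim-labelled (0.771) libraries. Hoxa5 gave 0.22 ± 0.17 in Stc1-labelled (adjusted p = 0.572), -0.05 ± 0.17 in Pygo1-labelled (0.899) and 0.19 ± 0.17 in Rlim-labelled (0.616) libraries (edgeR). Hoxa6 gave 0.32 ± 0.16 in Stc1-labelled (adjusted p = 0.398), 0.03 ± 0.16 in Pygo1-labelled (0.944) and 0.03 ± 0.16 in Rlim-labelled (0.947) libraries. None of these 5 members passed under any label.

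In HoxC all 7 tested members lay above both WT libraries in both Rlim-labelled libraries, with a median log2 fold change of 0.54 and a range of 0.46 to 1.62, and none passed the edgeR test (smallest adjusted p = 0.176, Hoxc8). The median in that comparison was -0.081 over 518 genes of chromosome 15, those tested that also passed a further cut on mean level. Across the genome, 35.7% of genes had both Rlim-labelled libraries above both WT libraries. The 7 log2 fold changes were above 0 in Stc1-labelled libraries as well, with a median of 0.33 and a range of 0.03 to 0.89, and none passed. Hoxc9 had log2 fold changes of 0.23 ± 0.25 in Stc1-labelled (adjusted p = 0.685), -0.27 ± 0.25 in Pygo1-labelled (0.575) and 0.47 ± 0.25 in Rlim-labelled (0.372) libraries (edgeR). Hoxc13 was the member of HoxC with the largest value, at 1.62 ± 0.57 in Rlim-labelled libraries (edgeR adjusted p = 0.204). Hoxc4 gave 0.33 ± 0.33 in Stc1-labelled (adjusted p = 0.659), -1.52 ± 0.35 in Pygo1-labelled (0.0753) and 0.54 ± 0.33 in Rlim-labelled (0.443) libraries (edgeR). In the Pygo1-labelled comparison it passed with DESeq2 (0.00527), without the filter on low counts (0.0420) and without either Stc1-labelled library. Against Rlim-labelled libraries, Pygo1-labelled libraries stood at -2.06 ± 0.35 for Hoxc4 (edgeR adjusted p = 0.0526), and Stc1-labelled against Pygo1-labelled libraries at 1.85 ± 0.35 (0.0540).

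In HoxD, Hoxd9 gave 0.09 ± 0.13 in Stc1-labelled (adjusted p = 0.761), -0.16 ± 0.13 in Pygo1-labelled (0.521) and -0.40 ± 0.13 in Rlim-labelled (0.177) libraries (edgeR). Hoxd8 gave -0.26 ± 0.23 in Stc1-labelled (adjusted p = 0.613), -0.54 ± 0.23 in Pygo1-labelled (0.241) and -0.47 ± 0.23 in Rlim-labelled (0.335) libraries. The low members Hoxd3 and Hoxd4 stood in Stc1-labelled libraries at 1.22 ± 0.31 and 0.94 ± 0.26 (edgeR adjusted p = 0.156 and 0.177), neither past the threshold, and most of the exon bases of each are shared with other genes. A size of 2-fold or more was reached by 2 members in Stc1-labelled libraries (Hoxd3 and Hoxd10, where 10.8% of all genes reached it), by 2 in Pygo1-labelled libraries (Hoxb13 and Hoxc4, 13.6%) and by 3 in Rlim-labelled libraries (Hoxa13, Hoxb13 and Hoxc13, 11.7%). Both libraries of a label lay above both WT libraries for 11 members in Stc1-labelled, 5 in Pygo1-labelled and 15 in Rlim-labelled libraries, against 22.2%, 29.6% and 35.7% of all genes in that order. They lay below for 6, 16 and 14 members, against 22.2%, 31% and 35.6% of all genes.

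**Figure D3:**
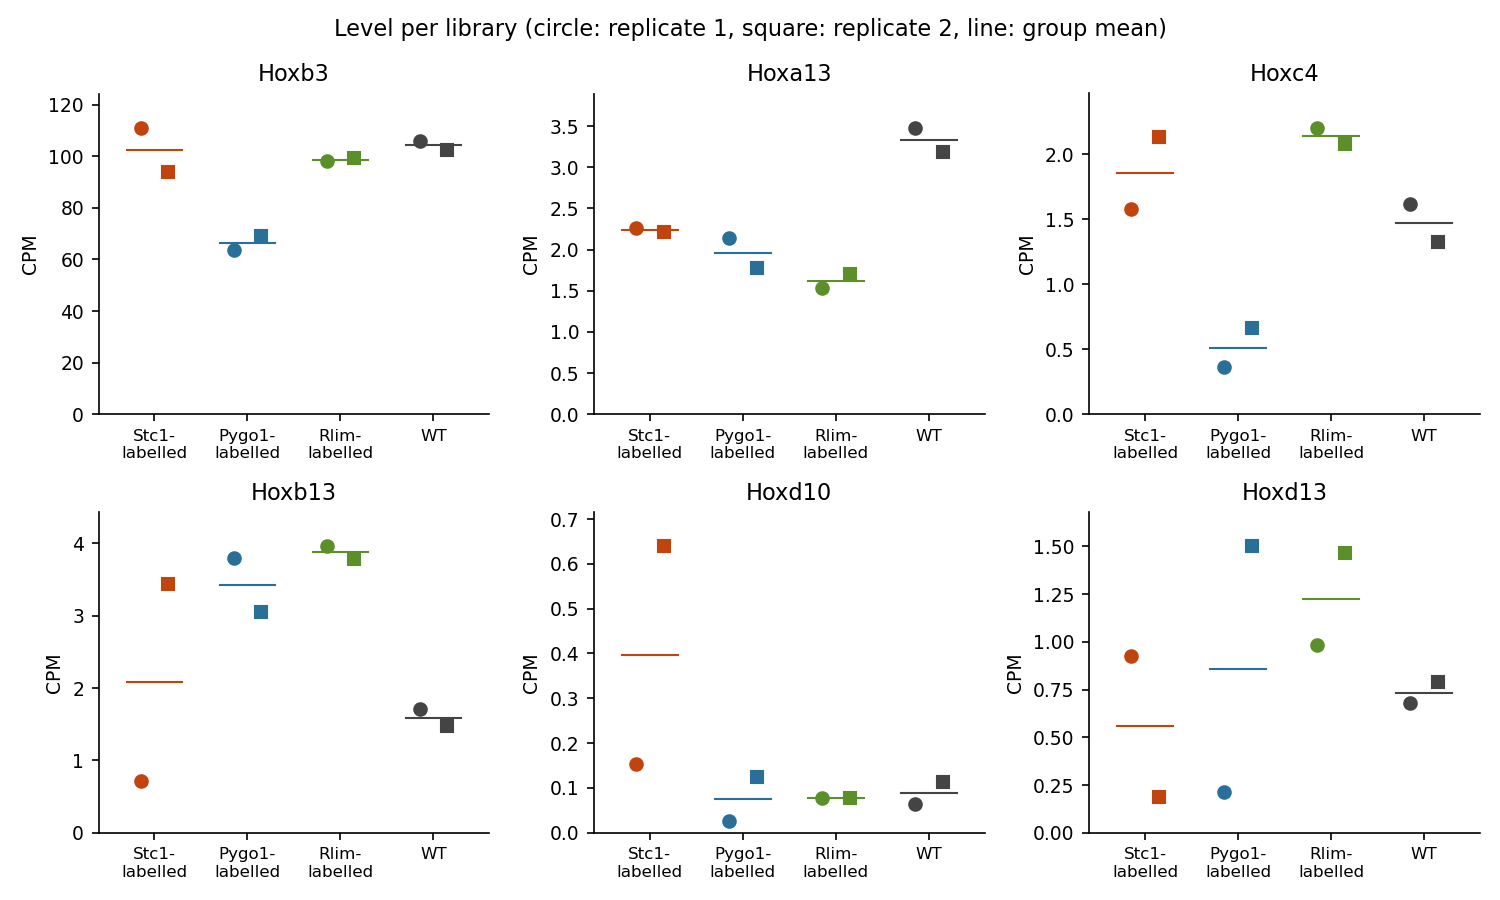
CPM of Hoxb3, Hoxa13, Hoxc4, Hoxb13, Hoxd10 and Hoxd13 in each of the 8 libraries, 1 panel per gene, groups along the horizontal axis, with a line at each group mean. The Hoxb3 points of the Pygo1-labelled pair (63.6 and 69.2 CPM) lie below all others, whereas the Stc1-labelled pairs of Hoxb13 and Hoxd13 and the Pygo1-labelled pair of Hoxd13 are split.

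Some members varied more within a pair than between groups. Hoxb13 had 0.720 and 3.43 CPM in Stc1-labelled, 3.80 and 3.06 CPM in Pygo1-labelled, 3.96 and 3.79 CPM in Rlim-labelled and 1.71 and 1.48 CPM in WT libraries, and its first Stc1-labelled library was the lowest of all while the second was near the Pygo1-labelled and Rlim-labelled values. Its log2 fold changes were 0.38 ± 0.61 in Stc1-labelled (adjusted p = 0.798), 1.11 ± 0.61 in Pygo1-labelled (0.356) and 1.28 ± 0.62 in Rlim-labelled (0.335) libraries (edgeR). Hoxd13 had 0.928 and 0.186 CPM in Stc1-labelled, 0.214 and 1.5001 CPM in Pygo1-labelled, 0.983 and 1.46 CPM in Rlim-labelled and 0.677 and 0.789 CPM in WT libraries, with the second Stc1-labelled and the first Pygo1-labelled library low. The values against WT were -0.40 ± 0.95 in Stc1-labelled (adjusted p = 0.875), 0.22 ± 0.94 in Pygo1-labelled (0.919) and 0.74 ± 0.93 in Rlim-labelled (0.733) libraries (edgeR). Hoxd10, a gene of lumbosacral motor neurons, had 0.152 and 0.639 CPM in Stc1-labelled, 0.0252 and 0.124 CPM in Pygo1-labelled, 0.0786 and 0.0771 CPM in Rlim-labelled and 0.0651 and 0.113 CPM in WT libraries, and the second Stc1-labelled library stood alone at a count of 48. Against WT it stood at 2.13 ± 0.87 in Stc1-labelled (adjusted p = 0.292), -0.28 ± 0.98 in Pygo1-labelled (0.901) and -0.19 ± 0.97 in Rlim-labelled (0.944) libraries (edgeR). The Stc1-labelled value of Hoxd10 was 2.81 (edgeR adjusted p = 0.0293) without the first Stc1-labelled library and 0.76 without the second, so 1 library decided it. With Hoxc4, these 4 of 33 members had a library at least 4-fold from the mean of the others, as did 12% of all genes tested. Pairs that differed by 2-fold or more were found for 5 members in Stc1-labelled libraries (Hoxa2, Hoxb13, Hoxc6, Hoxd10 and Hoxd13) and 3 in Pygo1-labelled libraries (Hoxc13, Hoxd10 and Hoxd13), and for none in Rlim-labelled or WT libraries. Hoxc6 was 2.80 and 5.76 CPM in the Stc1-labelled pair and Hoxc13 1.51 and 0.385 CPM in the Pygo1-labelled pair.

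Reads that carry a difference between the parental genomes can be assigned to a copy of a cluster. A share may also hold misassigned reads, which were not told apart from transcription of that copy. The share of such reads assigned to genome 1 differed widely between the clusters of the same cells. Which parent genome 1 stands for was not given in the sources used here. HoxA was read from both genomes in Stc1-labelled and WT libraries and nearly from genome 1 alone in Pygo1-labelled and Rlim-labelled libraries. HoxB and HoxD were read mostly from genome 2 and HoxC mostly from genome 1 in all 8 libraries. A share is given with its 95% Wilson interval where a single library is at issue, and these intervals cover counting error only.

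**Figure D4:**
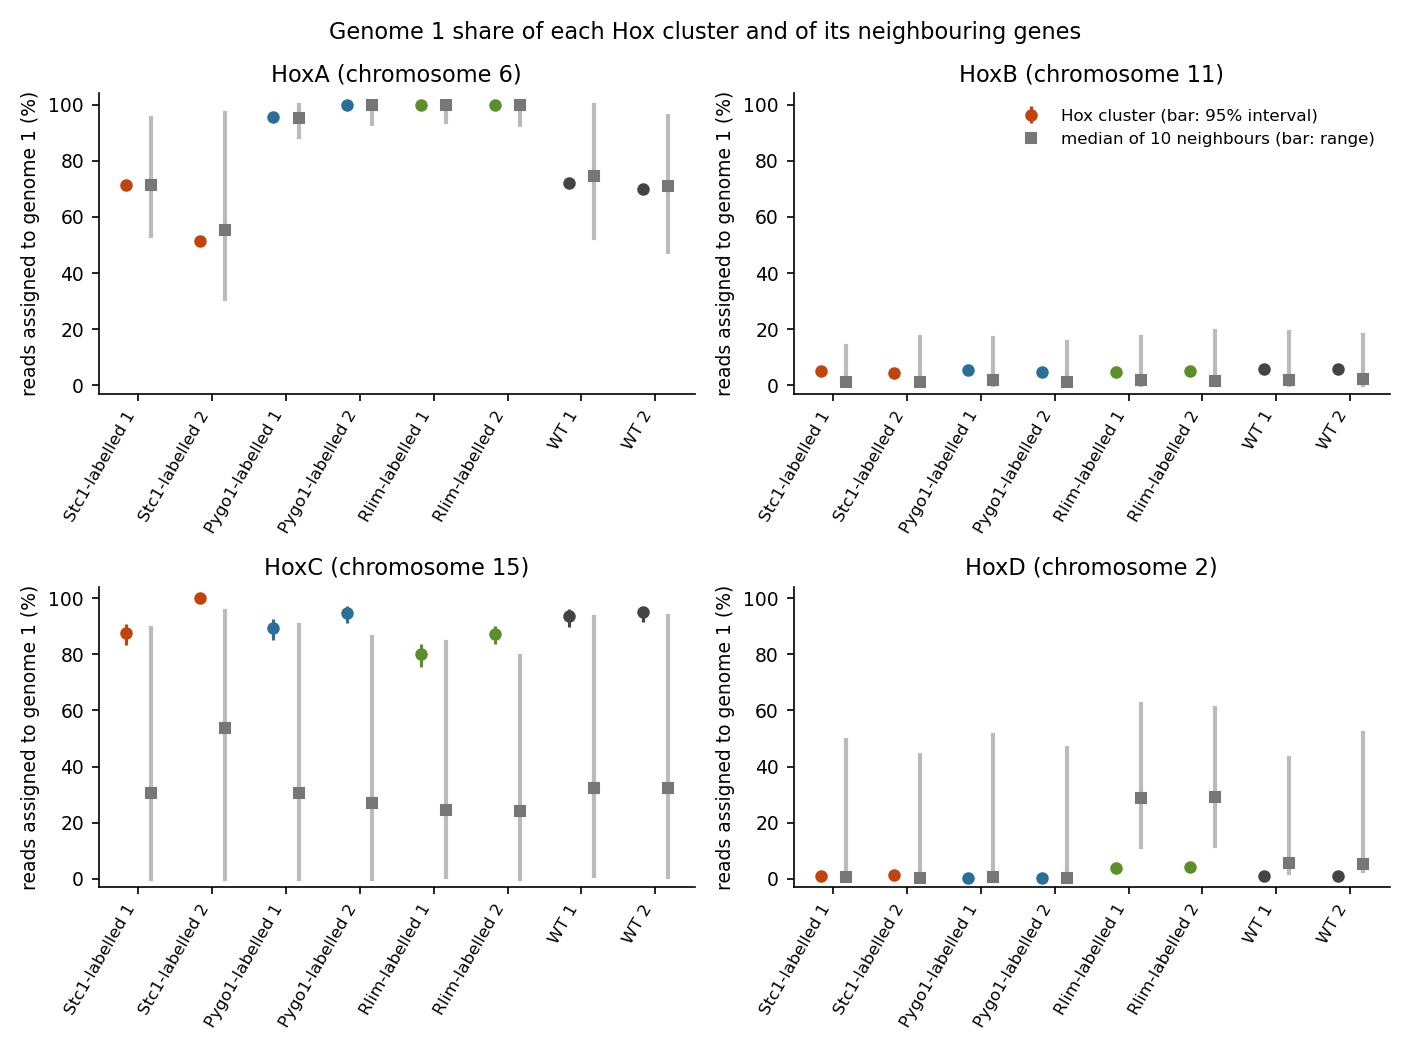
Genome 1 share (percent of reads assigned to a genome) of each Hox cluster in each library, with 95% Wilson intervals, beside the median share of the 10 neighbouring genes with their range as a bar. HoxC stands above the median of its neighbours in all 8 libraries, by 46.1 to 67.9 percentage points, though their range reaches it in some. HoxA and its neighbours move together.

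The genome 1 share of HoxA was 71.4 and 51.4% in Stc1-labelled, 95.7 and 99.8% in Pygo1-labelled, 99.7 and 99.9% in Rlim-labelled and 72.0 and 69.9% in WT libraries. The second Stc1-labelled library held 3093 reads of genome 1 and 2920 of genome 2 (95% interval of the share 50.2% to 52.7%), below the first (70.4% to 72.4%). The first Pygo1-labelled library retained 249 reads of genome 2 against 9 in the second. The 5 genes on each side of the cluster had median shares of 71.5 and 55.3% in Stc1-labelled, 95.1 and 99.8% in Pygo1-labelled, 99.8 and 99.8% in Rlim-labelled and 74.5 and 71.2% in WT libraries, and the medians of the 597 chromosome 6 genes measured were 71.6 and 59.6% in Stc1-labelled, 94.9 and 99.8% in Pygo1-labelled, 99.7 and 99.8% in Rlim-labelled and 72.0 and 72.0% in WT libraries. HoxA shares thus lay near the chromosome medians except in the second Stc1-labelled library, at 51.4% against 59.6%. From the median of its neighbours HoxA differed by -0.860 percentage points on average (SD 1.56, n = 8 libraries, from -3.84 to 0.618). The exact sign-flip permutation test, two-sided, gave p = 0.227, which does not show that the shares are alike.

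**Figure D5:**
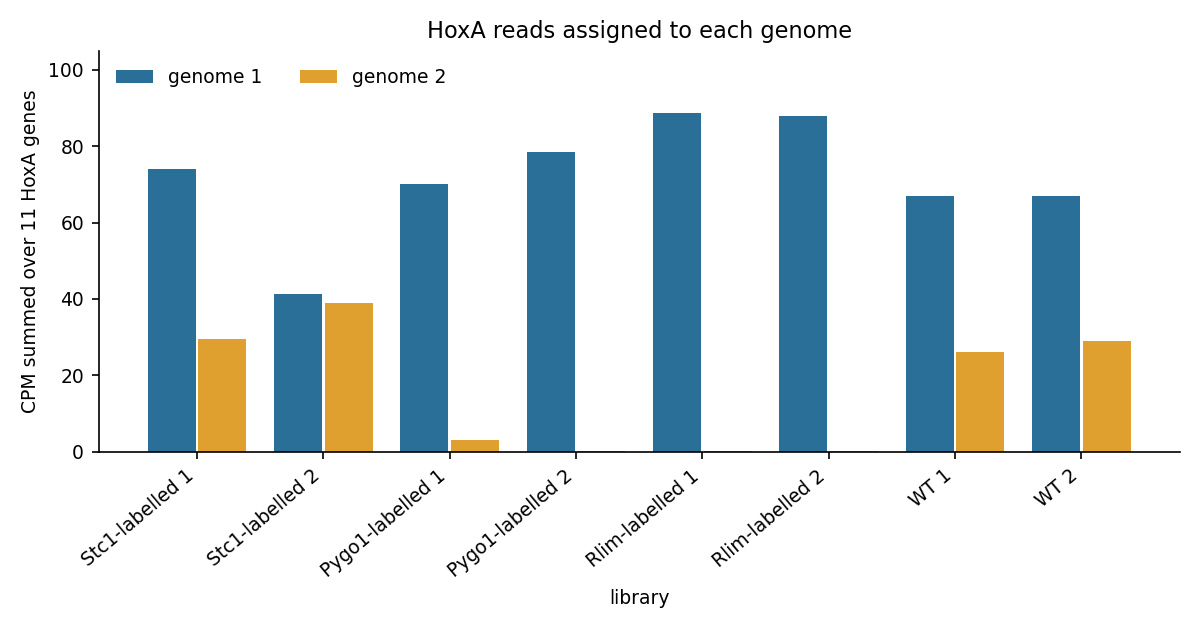
HoxA reads of genome 1 and of genome 2 (bars, CPM summed over the 11 members) in each library along the horizontal axis. Genome 2 reads were near 0 in Pygo1-labelled and Rlim-labelled libraries (0.116 to 3.13 CPM) and 26.1 and 28.8 CPM in WT libraries, while genome 1 reads stood at 70.2 to 88.6 CPM in those libraries and at 67.0 CPM in both WT libraries.

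By amount, HoxA genome 2 reads came to 29.6 and 38.9 CPM in Stc1-labelled, 3.13 and 0.124 CPM in Pygo1-labelled, 0.236 and 0.116 CPM in Rlim-labelled and 26.1 and 28.8 CPM in WT libraries. Genome 1 reads of HoxA came to 74.0 and 41.2 CPM in Stc1-labelled, 70.2 and 78.5 CPM in Pygo1-labelled, 88.6 and 87.9 CPM in Rlim-labelled and 67.0 and 67.0 CPM in WT libraries. In Pygo1-labelled and Rlim-labelled libraries the genome 2 reads were at most 3.13 CPM and the genome 1 reads were above both WT libraries in all 4, by ratios of means of 1.11 and 1.32. The summed HoxA level of these groups was 0.782 and 0.915 times that of WT. Single members followed the cluster: the genome 1 share of Hoxa7, the member with most reads, was 71.6 and 47.6% in Stc1-labelled, 96.1 and 99.9% in Pygo1-labelled, 99.9 and 99.8% in Rlim-labelled and 70.8 and 68.0% in WT libraries. Hoxa9 had 65.9 and 48.6% in Stc1-labelled, 93.8 and 99.8% in Pygo1-labelled, 99.9 and 99.9% in Rlim-labelled and 69.5 and 65.8% in WT libraries. Hoxa10 had 77.5 and 58.1% in Stc1-labelled, 96.3 and 100% in Pygo1-labelled, 99.8 and 100% in Rlim-labelled and 76.4 and 75.6% in WT libraries. Every Pygo1-labelled and Rlim-labelled share of these 3 genes was above 90%. For Hoxa3 the shares were 79.0 and 65.4% in Stc1-labelled, 96.8 and 100% in Pygo1-labelled, 99.8 and 99.8% in Rlim-labelled and 80.2 and 73.4% in WT libraries. For Hoxa6 they were 77.9 and 61.3% in Stc1-labelled, 98.9 and 100% in Pygo1-labelled, 100 and 100% in Rlim-labelled and 73.7 and 72.4% in WT libraries. Hoxa4 had 79.1 and 54.9% in Stc1-labelled, 100 and 100% in Pygo1-labelled, 100 and 100% in Rlim-labelled and 76.4 and 67.8% in WT libraries. Hoxa2 had 68.3 and 66.7% in Stc1-labelled, 91.2 and 91.4% in Pygo1-labelled, 89.8 and 94.7% in Rlim-labelled and 52.4 and 65.7% in WT libraries, on 27 to 82 reads per library. In the second Pygo1-labelled and both Rlim-labelled libraries, where Hoxa2 stood at 89.8% to 94.7%, every other HoxA member was at 98.9% or more. Hoxa5, Hoxa11 and Hoxa13 ranged from 90.9% to 100% over Pygo1-labelled and Rlim-labelled libraries and from 40.4% to 81.4% over Stc1-labelled and WT libraries.

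HoxB had a genome 1 share of 4.99 and 4.31% in Stc1-labelled, 5.35 and 4.78% in Pygo1-labelled, 4.81 and 4.98% in Rlim-labelled and 5.62 and 5.79% in WT libraries, against chromosome 11 medians of 0.848% to 1.80%. The share was above the median of its neighbours by 3.46 percentage points on average (SD 0.291, higher in 8 of 8 libraries; exact sign-flip permutation test, two-sided, p = 0.00781, the smallest that 8 libraries allow; 0.0156 adjusted over 4 clusters). The cluster share pools reads, so members with many reads weigh more, whereas the median counts each neighbour once. The comparison was also chosen after the shares were seen, and an offset fixed in the line recurs in every library. The p-value therefore concerns the pooled share in 1 cell line and not each member, and adds no independent support. Of the neighbours, Cdk5rap3 had 7.58% to 9.55% and Igf2bp1 up to 19.3%, each above the cluster in every library. Most genome 1 reads of HoxB came from 3 of its genes. Hoxb2 had 22.1 and 18.2% in Stc1-labelled, 24.0 and 22.6% in Pygo1-labelled, 20.6 and 23.0% in Rlim-labelled and 22.1 and 19.4% in WT libraries. Hoxb7 had 9.17 and 7.86% in Stc1-labelled, 8.66 and 9.70% in Pygo1-labelled, 10.0 and 9.32% in Rlim-labelled and 7.90 and 9.73% in WT libraries. Hoxb9 had 8.91 and 8.90% in Stc1-labelled, 10.2 and 8.41% in Pygo1-labelled, 8.21 and 9.33% in Rlim-labelled and 9.71 and 9.58% in WT libraries. Hoxb3, Hoxb4, Hoxb5, Hoxb6 and Hoxb8 stayed under 1% in every library, below the neighbour medians of 1.11% to 2.095%. Hoxb13 ranged from 0 to 5.48% on 33 to 203 reads. Adjacent members such as Hoxb2 and Hoxb3 thus differed in share by a wide margin in every library. The genome 1 share of Hoxb3 was 0.105 and 0.0777% in Stc1-labelled, 0 and 0.0532% in Pygo1-labelled, 0.264 and 0.110% in Rlim-labelled and 0.812 and 0.593% in WT libraries, which is 0 of 1796 reads in the first Pygo1-labelled library and allows a share of up to 0.167%.

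HoxC had a genome 1 share of 87.5 and 100% in Stc1-labelled, 89.5 and 94.9% in Pygo1-labelled, 80.1 and 87.3% in Rlim-labelled and 93.6 and 94.9% in WT libraries, on 216 to 386 reads per library. Its 10 neighbours had medians of 30.5 and 53.9% in Stc1-labelled, 30.5 and 26.997% in Pygo1-labelled, 24.5 and 24.3% in Rlim-labelled and 32.3 and 32.3% in WT libraries. The cluster stood above them by 59.1 percentage points on average (SD 6.51, from 46.1 to 67.9, higher in 8 of 8 libraries; exact sign-flip permutation test, two-sided, p = 0.00781, the smallest possible; 0.0156 adjusted over 4 clusters). All 8 libraries come from 1 cell line, so they show that the line has this difference and are not independent cases of it. The comparison was also chosen after the shares were seen, so the p-value adds no independent support. The difference is from the median of the neighbours. Of these, Npff had 79.5% to 95.5%, which overlaps the range of the cluster. All 7 expressed members took part: Hoxc6 had 93.3% to 100%, Hoxc4 89.1% to 100%, Hoxc8 81.2% to 100%, Hoxc5 80% to 100%, Hoxc9 81.0% to 100% and Hoxc13 75.0% to 100%, on 6 to 79 reads per gene and library. Hoxc10 was lowest, at 55.1% of 78 reads in the first Rlim-labelled library and 79.2% to 100% in the others. A cutoff of 80% in every library was applied to this cluster and its chromosome alone. It was met by 2 of the 3 HoxC members with enough reads and by 9 of 490 other genes of chromosome 15 (1.84%). Hoxc5 met it exactly, with 24 reads of genome 1 and 6 of genome 2 in the first Pygo1-labelled library. Hoxc9 had 81.0% at the lowest, so these counts are no test of rarity.

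HoxD had a genome 1 share of 0.944 and 1.19% in Stc1-labelled, 0.309 and 0.391% in Pygo1-labelled, 3.79 and 4.07% in Rlim-labelled and 0.995 and 0.872% in WT libraries. Its neighbours had medians of 0.707 and 0.244% in Stc1-labelled, 0.503 and 0.226% in Pygo1-labelled, 28.9 and 29.2% in Rlim-labelled and 5.59 and 5.17% in WT libraries. By their median, genes beside HoxD were thus read from genome 1 at near 29% in both Rlim-labelled libraries. Single neighbours ranged from 11.4% to 62.2% in the first and from 11.6% to 61.0% in the second. The cluster stayed near 4% as a pooled share, in which members with many reads, Hoxd8 and Hoxd9, weigh most. Hoxd3os1, an antisense gene inside the cluster, had 36.6 and 36.7% in these libraries. Over the 8 libraries the difference was -7.25 percentage points (SD 11.2; exact sign-flip permutation test, two-sided, p = 0.109, 0.146 adjusted over 4 clusters) and did not pass. Within the cluster the Rlim-labelled share was uneven: Hoxd4 had 0 and 0% in Stc1-labelled, 0 and 1.56% in Pygo1-labelled, 12.4 and 16.8% in Rlim-labelled and 0 and 3.37% in WT libraries. Hoxd8 had 0 and 0% in Stc1-labelled, 0 and 0% in Pygo1-labelled, 5.16 and 3.69% in Rlim-labelled and 1.64 and 1.16% in WT libraries. A cutoff of 5% in both Rlim-labelled libraries was applied to this cluster and its chromosome alone. It was met by 1 of the 3 HoxD members with enough reads and by 23 of 952 other genes of chromosome 2 (2.42%). Hoxd8 missed it through its 5.16% in the first Rlim-labelled library, so these counts are no test of rarity. Hoxd9 had no genome 1 read in Rlim-labelled libraries, 0 of 547 and 0 of 509, which allows shares of up to 0.548% and 0.589%. Hoxd3 kept some genome 1 reads in 7 of 8 libraries, with 26.5 and 19.6% in Stc1-labelled, 18.2 and 20% in Pygo1-labelled, 16.7 and 31.2% in Rlim-labelled and 10 and 0% in WT libraries on 15 to 51 reads. Hoxd13 had 1 genome 1 read in all, and Hoxd10, Hoxd11 and Hoxd12 had at most 10 reads with a genome per library.

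The change of share against WT was tested for 26 members among 12476 genes with at least 20 reads in every library. In Pygo1-labelled libraries 6 members passed, where 20% of all genes did: Hoxa2, Hoxa3, Hoxa4 and Hoxa6, each with a higher genome 1 share, and Hoxb3 and Hoxd8, each with a lower one (edgeR adjusted p = 0.0178, 0.0484, 0.0325, 0.0213, 0.0150 and 0.0165 in that order). In Rlim-labelled libraries 6 passed, where 11.9% of all genes did, all of HoxA and all with a higher share: Hoxa2, Hoxa3, Hoxa6, Hoxa7, Hoxa9 and Hoxa10 (edgeR adjusted p = 0.0229, 0.0313, 0.0249, 0.0330, 0.0311 and 0.0465 in that order). In Stc1-labelled libraries Hoxd8 passed with a lower share (edgeR adjusted p = 0.0367), where 5.54% of all genes did. The Hoxd8 shares behind both calls are 0% in all 4 Stc1-labelled and Pygo1-labelled libraries against 1.64% and 1.16% in WT libraries. The remaining HoxA members had shares above 90% in every Pygo1-labelled and Rlim-labelled library as well, and a missed threshold does not show that they kept the WT share. Leaving out 1 library moved these counts. Each such fit leaves 1 library in a group, and the calls over all genes moved as well. The moved counts therefore say little of Hox members.

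The genes that work with or on Hox genes were taken from lists. Of 9 TALE homeodomain genes, whose products bind DNA together with Hox proteins, 8 were tested and none was called in any of the 3 comparisons with WT. Their medians were -0.09 in Stc1-labelled, -0.10 in Pygo1-labelled and 0.11 in Rlim-labelled libraries. Pbx2 (71.8 to 100.3 CPM) and Meis2 (42.7 to 55.6 CPM) were among those present, and Meis1 had at most 5 counts. The smallest adjusted p were those of Pbx4 in Pygo1-labelled libraries (0.86 ± 0.16, edgeR adjusted p = 0.0502) and Pknox2 in Rlim-labelled libraries (1.94 ± 0.35, 0.0548). All 28 genes of Polycomb repressive complexes were tested and none was called against WT, with medians of -0.04, 0.03 and -0.07 in Stc1-labelled, Pygo1-labelled and Rlim-labelled libraries. Phc1, a subunit of Polycomb complex 1, came closest (-0.46 ± 0.11, edgeR adjusted p = 0.0932, in Pygo1-labelled libraries). Between Stc1-labelled and Pygo1-labelled libraries 2 Polycomb genes were called, Phc1 as higher (0.65 ± 0.11, edgeR adjusted p = 0.0469) and Cbx7 as lower (-1.10 ± 0.19, 0.0447). None of 14 Trithorax and H3K27 demethylase genes was called against WT, with Dot1l nearest (0.59 ± 0.11, edgeR adjusted p = 0.0548, in Rlim-labelled libraries).

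Retinoic acid, made by Aldh1a enzymes and sensed by its receptors, switches on 3′ Hox genes in embryos. Of 18 genes of that pathway 14 were tested and none was called against WT. Crabp2, which carries retinoic acid in the cell, stood at 1.25 ± 0.32 in Stc1-labelled and 1.19 ± 0.32 in Pygo1-labelled libraries (edgeR adjusted p = 0.158 and 0.109). Of 8 other regulators of Hox domains 5 were tested, with none called. Evx2, which lies next to Hoxd13, had 19 and 27 counts in Stc1-labelled, 3 and 4 counts in Pygo1-labelled, 1 and 2 counts in Rlim-labelled and 0 and 2 counts in WT libraries, and stood at 4.45 ± 0.85 in Stc1-labelled libraries (edgeR adjusted p = 0.0859). Of 8 genes that work with Hox11 proteins in the kidney 7 were tested and none was called. Pax2, a kidney transcription factor, was abundant at 649 to 1158 CPM, and it was 0.64 ± 0.12 in Rlim-labelled libraries (edgeR adjusted p = 0.0613). Six2, a marker of nephron progenitors, had no read in any library.

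Of the markers of other cell types, Cdh5 reached 100.3 CPM in a library, Csf1r 57.0 CPM, Cdh1 20.1 CPM and Cd68 7.61 CPM, and each of the others at most 2.67 CPM. Summed over 7 epithelial markers they came to 22.8 and 7.71 CPM in Stc1-labelled, 2.29 and 2.61 CPM in Pygo1-labelled, 5.24 and 5.54 CPM in Rlim-labelled and 12.4 and 12.4 CPM in WT libraries. Cdh1 was called lower in Pygo1-labelled (-5.08 ± 0.61, edgeR adjusted p = 0.0161) and Rlim-labelled libraries (-4.18 ± 0.57, 0.0298). The 5 endothelial markers summed to 8.08 and 102 CPM in Stc1-labelled, 8.73 and 3.15 CPM in Pygo1-labelled, 8.62 and 8.70 CPM in Rlim-labelled and 2.63 and 3.23 CPM in WT libraries. The second Stc1-labelled library stood apart through Cdh5 at 100.3 CPM, and Pecam1 was called higher in Rlim-labelled libraries (4.55 ± 0.62, edgeR adjusted p = 0.0294). The 6 haematopoietic markers summed to 29.2 to 59.9 CPM, mostly Csf1r, with Cd3e at 0 in every library and Cd68 called higher in Pygo1-labelled libraries (1.75 ± 0.22, edgeR adjusted p = 0.0169). The 13 fibroblast markers summed to 5188 and 5983 CPM in Stc1-labelled, 5478 and 5764 CPM in Pygo1-labelled, 2710 and 2737 CPM in Rlim-labelled and 3464 and 3612 CPM in WT libraries. Fn1 was called higher in Pygo1-labelled (0.87 ± 0.15, edgeR adjusted p = 0.0413) and S100a4 was called lower in Rlim-labelled libraries (-2.31 ± 0.40, 0.0485). Their part in the Hox values was not tested.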

How the data were processed

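RNA-seq of 8 Patski libraries, 2 for each of 4 groups, was analysed. Each library has 3 columns of raw counts, as deposited: all reads assigned to an Ensembl gene and those of genome 1 and of genome 2. Per the labels' protocols, Trizol RNA went into a TruSeq library sequenced on an Illumina GAIIx; the submitters' processing notes name featureCounts, Cufflinks, HISAT2 2.0.5 and mm10, with no role or order. Not given in the sources used here are the tool that assigned reads to a genome, how multiply placed reads were treated, whether counting used strand, and the annotation version. A reference close to 1 parent can favour its reads. Shares were therefore set beside those of other libraries and of neighbouring genes.

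All genes passing filterByExpr (17839) were fitted with edgeR 4.0.16 in R 4.3.3 (TMM scaling, quasi-likelihood test, 1 mean per group, all 8 libraries; common biological coefficient of variation 24.6%), and p-values were adjusted over all of them by the Benjamini-Hochberg method at 0.05. Genome shares were fitted in edgeR with a term per library and a genome term per group, over 12476 genes with at least 20 reads with a genome in every library; 329 genes whose genome reads exceeded their total were left out. Wilson intervals are 95%; a share of 0 allows up to 3 reads of the total. Both cover counting error only. Cluster shares, which pool the reads of all members, were compared with the median share of the 5 nearest expressed genes on each side. The test was an exact sign-flip permutation test over libraries, a comparison chosen after the shares were seen. Annotation, coordinates and transcripts came from GENCODE M21 (GRCm38), to which 49325 of 49670 identifiers matched. The scripts were tested on simulated data.

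The members and lists were chosen with earlier results of these data known. All members are named except 1, which with 1 gene of the lists is not reported here. Full statistics are given for members called in any comparison or share test, with a mean of at least 5 CPM, or with 1 library at least 4-fold from the mean of the others; from each list, those of smallest adjusted p. Alternatives were DESeq2's size factors in edgeR, DESeq2 1.42.0, no filter on low counts, the compared groups alone, each chromosome scaled to WT, the replicate number as a block, each library left out in turn, a minimum of 50 reads for shares, and 10 neighbours each side.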

Additional observations from a re-analysis of the deposited data

How the results depend on the processing

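Counts of members called moved with the setting, and the share of all genes called is given in brackets after each. Pygo1-labelled against WT libraries (1 member by the edgeR test) gave 0 with DESeq2's size factors in edgeR (2.26%) and 2 without the filter on low counts (2.95%). That comparison gave 5 with DESeq2 (9.47%) and 5 with the compared groups alone (9.97%). Rlim-labelled against WT libraries (0 members) gave 2 with DESeq2 (7.89%) and 19 of 33 with the compared groups alone (48.9%). Stc1-labelled against Pygo1-labelled libraries (0) gave 2 with each chromosome scaled to WT (1.72%), 1 without the filter (2.32%) and 5 with DESeq2 (7.34%). Stc1-labelled against Rlim-labelled libraries (0) gave 1 with DESeq2 (4.9%). Pygo1-labelled against Rlim-labelled libraries (0) gave 1 with each chromosome scaled (1.22%) and 1 without the filter (1.77%). The same comparison gave 3 with DESeq2 (6.24%) and 2 with the compared groups alone (5.66%). Leaving out 1 library at a time gave 0 to 9 members for Stc1-labelled, 0 to 11 for Pygo1-labelled and 0 to 6 for Rlim-labelled against WT libraries, 0 to 10 for Stc1-labelled against Pygo1-labelled, 0 to 8 for Stc1-labelled against Rlim-labelled and 0 to 6 for Pygo1-labelled against Rlim-labelled libraries. The counts above 0 came without a Stc1-labelled library. Share counts ranged over the same settings from 0 to 3, 0 to 14 and 0 to 14 in Stc1-labelled, Pygo1-labelled and Rlim-labelled libraries. The log2 fold change of Hoxa9 in Rlim-labelled against WT libraries turned to 0.0104 with each chromosome scaled to WT, a setting that removes the chromosome 6 median of -0.350.

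With the replicate number as a block, Pygo1-labelled against WT libraries gave 0 members (0.611% of all genes called). The share test gave 0 in Stc1-labelled (3.09%) and 1 in Rlim-labelled libraries (Hoxa2, 4.41%), and no other count of calls moved by over 1.5 times. The pairs' differences correlated at r = -0.145 between Stc1-labelled and Pygo1-labelled libraries and at -0.002 to 0.039 otherwise, so the numbers do not pair the libraries. With crossed numbers Stc1-labelled against Pygo1-labelled libraries gave 0 members (0.706% of all genes). Of 464 values of single members under these alternatives, 339 kept their direction and side of the threshold, 51 passed newly, 73 no longer passed and 1 changed direction. With 2 libraries per group, a call missed here says little of members with low counts.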

Other observations

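Genes other than the 39 members also lie in the clusters, and reads of these are given here as values. Gm53, a long non-coding RNA between Hoxb13 and Hoxb9, was the most abundant of them, with 106 and 117 CPM in Stc1-labelled, 90.7 and 91.2 CPM in Pygo1-labelled, 127 and 136 CPM in Rlim-labelled and 82.6 and 79.5 CPM in WT libraries. Both Rlim-labelled libraries were above all others, and the gene was called higher against WT there (log2 fold change 0.70 ± 0.11, edgeR adjusted p = 0.0387), in a comparison where 1.4% of all genes were called; the Stc1-labelled value was 0.46 ± 0.11 (0.127) and the Pygo1-labelled value 0.17 ± 0.11 (0.424). Its 2 protein-coding flanking genes did not pass the same test. The antisense RNA Hoxa11os had 745 and 874 counts in Stc1-labelled, 914 and 817 counts in Pygo1-labelled, 729 and 801 counts in Rlim-labelled and 637 and 703 counts in WT libraries, beside 11.9 CPM of Hoxa11 on average. Hotairm1, a non-coding RNA of the HoxA cluster, had 141 and 230 counts in Stc1-labelled, 240 and 224 counts in Pygo1-labelled, 173 and 206 counts in Rlim-labelled and 230 and 270 counts in WT libraries. Hoxb5os had 838 and 1581 counts in Stc1-labelled, 878 and 547 counts in Pygo1-labelled, 1047 and 942 counts in Rlim-labelled and 1197 and 1396 counts in WT libraries, with the second Stc1-labelled library highest and the second Pygo1-labelled library lowest. Hottip, a non-coding RNA beyond Hoxa13, had 4 to 21 counts, fewest in the Rlim-labelled libraries (6 and 4 counts, against 21 and 13 counts in WT libraries). The strand setting was not given in the sources used here, so reads of antisense genes and of their partners may be mixed.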
